A study of Mus musculus with 11 samples.

Results

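The epithelial-mesenchymal transition (EMT) genes examined here are 10: the transcription factor genes Snai1, Snai2, Zeb1, Zeb2, Twist1, Twist2 and Prrx1, and the mesenchymal effector genes Vim, Cdh2 and Cdh11. They were chosen by name as regulators and effectors of EMT, from 54232 gene identifiers in the count table. The rule itself uses no measured value, but earlier results of these data were known when it was made. All 10 were among the 16536 genes that passed the filter on low counts. RNA was sequenced in bulk from 11 orthotopic pancreatic tumors of female C57BL/6 mice, 6 from PKN2KO hosts (KO A to F) and 5 from PKN2 wild-type hosts (WT A to E). KO hosts were Pkn2 fl/fl and WT hosts Pkn2 +/+. All hosts of both genotypes were adults heterozygous for Rosa26-CreERT2 and received tamoxifen, so that Cre was ubiquitous and the deletion was systemic rather than limited to fibroblasts. Every tumor was started with 1000 TB32048 cells, a carcinoma line from 1 female KPC mouse that kept intact Pkn2, injected into the pancreas in Matrigel. The comparison addresses which EMT genes differ in tumors whose stroma, but not carcinoma cells, lost PKN2.

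EMT is the process in which epithelial cells lose cell-cell junctions and take on a migratory, mesenchymal form. The Snail, Zeb and Twist families are DNA-binding repressors and activators that drive it, in large part by binding E-box motifs in the promoters of epithelial genes such as Cdh1, which encodes E-cadherin. Fibroblasts, pericytes, endothelial cells and macrophages use many of the same genes in their normal state, so a bulk tumor reads carcinoma and stromal transcripts together. In such samples fewer cells of a type and less RNA per cell cannot be told apart.

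Promoter sequences are shown because the E-box CACCTG is the motif best known for Snail and Zeb factors. It was searched as CACCTG or its reverse complement CAGGTG in the 250 bases before each annotated start (RefSeq, GRCm38.p6). Entries were found for 6 of the 10 genes and not for Cdh2, Cdh11, Zeb1 and Snai2. Only Snai1 among the 6 held the motif, with 1 copy starting 126 bases before the start of transcription. Of 12 epithelial junction and keratin genes, 10 had an entry and 8 of these held the motif in at least 1 window, where 19.4% of all 27025 genes with an entry did. By window, 9 of 13 held it, against 17.2% of all 32851. Snai1 is shown (chr2:167537945-167538194, plus strand) with Epcam (chr17:87635729-87635978, plus strand), which encodes an epithelial adhesion molecule, and Crb3 (chr17:57061951-57062200, plus strand), which encodes a polarity protein and had the most copies, 3. Capitals mark the motif on either strand, and a match is a description of letters, not evidence of binding.
Snai1: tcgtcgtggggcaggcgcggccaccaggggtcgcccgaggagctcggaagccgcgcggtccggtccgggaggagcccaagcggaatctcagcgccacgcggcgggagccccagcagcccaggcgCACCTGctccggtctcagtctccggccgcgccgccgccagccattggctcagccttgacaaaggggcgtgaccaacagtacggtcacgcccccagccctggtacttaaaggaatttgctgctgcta
Epcam: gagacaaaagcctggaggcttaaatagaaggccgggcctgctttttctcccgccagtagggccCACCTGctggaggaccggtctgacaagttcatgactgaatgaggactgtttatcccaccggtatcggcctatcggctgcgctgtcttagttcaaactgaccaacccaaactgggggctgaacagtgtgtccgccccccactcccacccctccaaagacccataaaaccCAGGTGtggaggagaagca
Crb3: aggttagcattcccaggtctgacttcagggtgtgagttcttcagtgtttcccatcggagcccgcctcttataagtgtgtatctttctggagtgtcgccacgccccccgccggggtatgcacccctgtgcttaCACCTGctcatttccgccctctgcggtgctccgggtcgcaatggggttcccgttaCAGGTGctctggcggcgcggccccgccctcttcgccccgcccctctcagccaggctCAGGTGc

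The libraries were not uniform, and this bears on every value below. Total counts were 16294128 (WT B) to 31121422 (WT E). Ribosomal RNA genes took 6.39% of counts in WT B, 1.40% in WT C and 1.31% in WT A, against 0.241% to 0.765% in all other tumors. In WT A, B and C longer genes read low relative to the other tumors, with Spearman coefficients between a gene's deviation and its exon length of -0.496, -0.446 and -0.171, against 0.10 to 0.372 elsewhere. WT A, B and C also stood apart from the other 8 libraries on the first principal component. The labels give no batch. The targeted gene Pkn2 lay between 80.1 and 108 CPM (a count divided by its scaled library size) in KO and between 62.9 and 138 CPM in WT tumors, and since carcinoma cells carry Pkn2 it does not check the labels. Values are CPM with TMM-scaled library sizes, which compare 1 gene between tumors. Levels of different genes are compared only as CPM per kilobase of exon.

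Across the EMT genes, no difference between host genotypes passed the adjusted threshold. With edgeR, 0 of 10 genes had an adjusted p under 0.05, where 0.0181% of all tested genes did. At an unadjusted p under 0.05, 2 of 10 were higher in KO tumors, Cdh11 and Zeb1, where the background was 8.57%, and 0 of 10 were lower, where it was 15.5%. The fold change was above 0 for 7 genes and below 0 for 3, with a median log2 fold change of 0.36, against -0.03 over all tested genes, of which 48.0% were above 0. In none of the 10 were KO and WT tumors without overlap, where 1.59% of tested genes were wholly higher and 2.01% wholly lower in KO tumors. DESeq2, run as an alternative, called 1 of 10, Cdh11, higher, where it called 3.21% of genes higher.

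**Figure D1:**
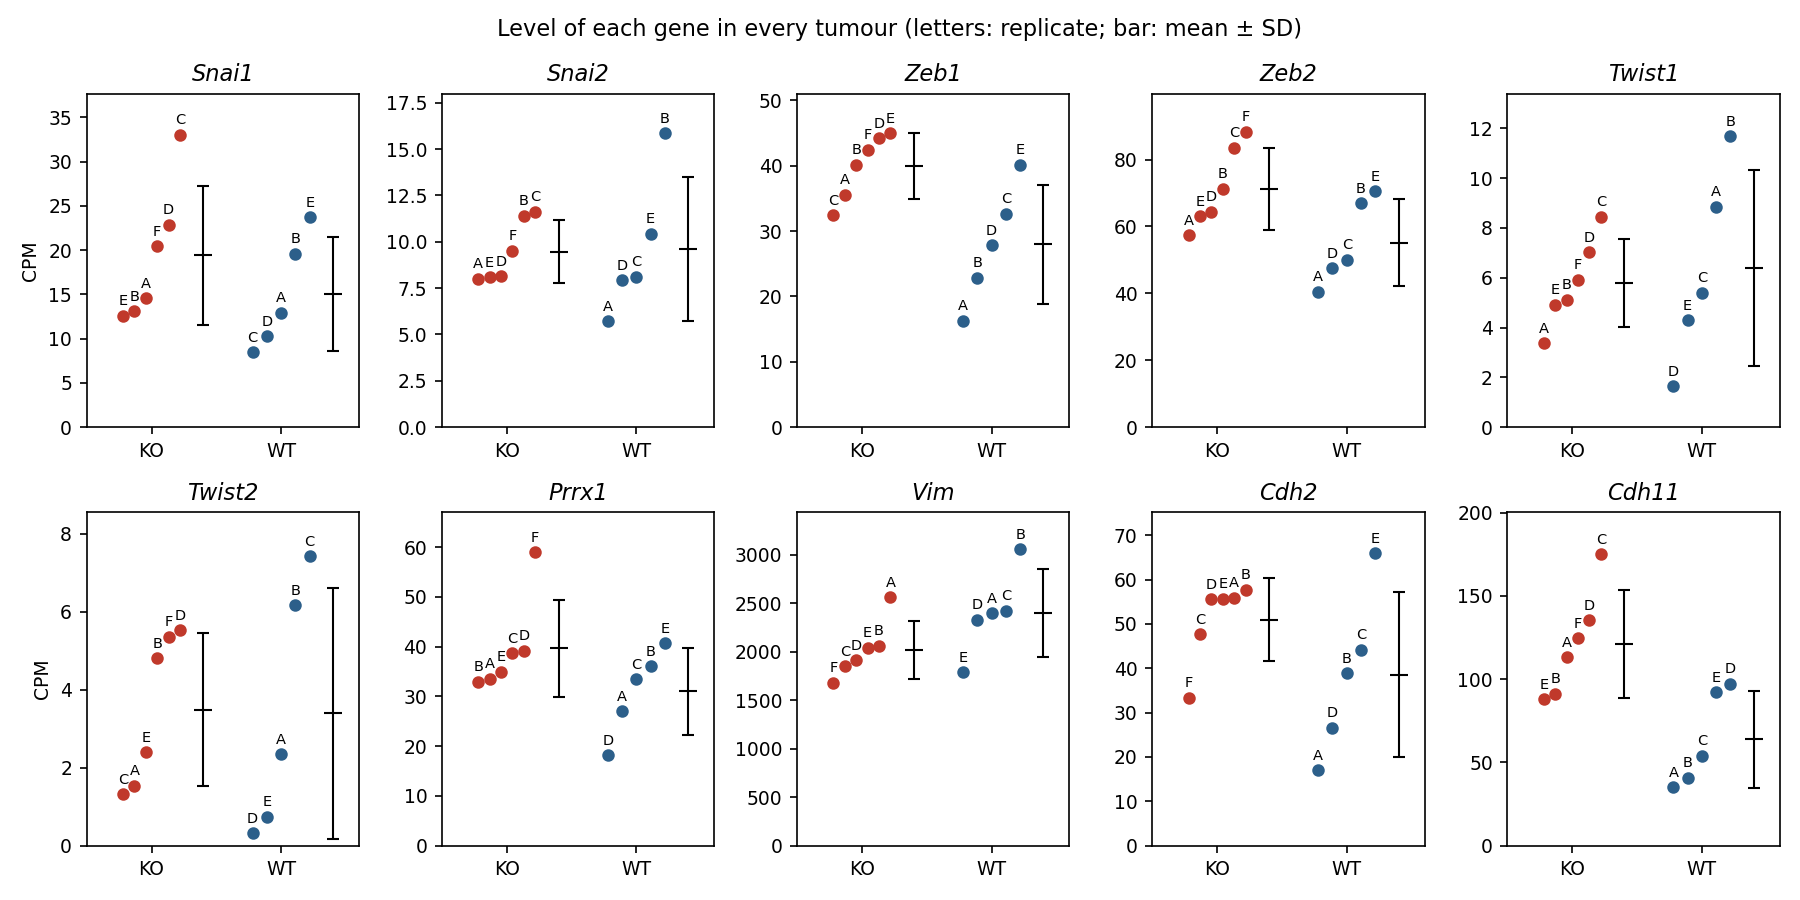
CPM (linear axis from 0) of each of the 10 genes in each KO and WT tumor, with replicate letters and, beside the points, the mean and SD. Cdh11 and Zeb1 lie higher in KO, with 4 of 6 KO tumors above every WT tumor, though for Zeb1 KO B all but ties with WT E. WT B is the highest tumor for Snai2, Twist1 and Vim.

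Neither Snail family gene passed the test, and for both the groups overlapped. Snai1 (ENSMUSG00000042821, chromosome 2, 167538195 to 167542814, plus strand) encodes Snail, a zinc finger repressor of Cdh1. Its level was 12.6 CPM in the lowest KO tumor, 17.5 at the median and 33.0 in the highest, KO C. In WT A to E it was 12.9, 19.6, 8.50, 10.3 and 23.7 CPM. The groups overlapped widely, with 1 KO tumor above all WT tumors. Its log2 fold change was 0.37 (SE 0.322, edgeR adjusted p = 0.491), and it was -0.21 with the macrophage marker list as a covariate.

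Snai2 (ENSMUSG00000022676, chromosome 16, 14705852 to 14709385, plus strand), which encodes Slug, measured 8.02 CPM in the lowest KO tumor, 8.82 at the median and 11.6 in the highest. In WT A to E it was 5.73, 15.9, 8.11, 7.91 and 10.4 CPM. The KO values were bracketed by those of WT A and WT B. The log2 fold change was -0.02 (95% interval -0.57 to 0.54, edgeR adjusted p = 0.973), which holds shifts in either direction.

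Zeb1 and Zeb2, which encode the paired zinc finger and homeodomain repressors of the Zeb family, both had KO tumors toward the upper end. Zeb1 (ENSMUSG00000024238, chromosome 18, 5591860 to 5775467, plus strand) measured 32.5 CPM in the lowest KO tumor, 41.3 at the median and 44.9 in the highest. In WT A to E it was 16.3, 22.9, 32.7, 27.8 and 40.2 CPM. All 6 KO tumors lay above the WT median and 4 above every WT tumor. Of these 4, KO B all but tied with WT E (40.18 and 40.17 CPM). WT E lay inside the KO range, as did WT C, just above KO C. The log2 fold change was 0.51 (SE 0.211, 95% interval 0.06 to 0.97, unadjusted p = 0.0303, edgeR adjusted p = 0.166). Over 22 alternatives it was at an unadjusted p under 0.05 in 11, including 6 of the 11 fits that left out 1 tumor. It passed the adjusted threshold without WT E (0.68, edgeR adjusted p = 0.0481). It was 0.24 without WT A, B and C (unadjusted p = 0.214), 0.25 with a gene length offset (unadjusted p = 0.102) and 0.32 in a fit adjusted for ribosomal RNA share (unadjusted p = 0.162).

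Zeb2 (ENSMUSG00000026872, chromosome 2, 44983632 to 45117395, minus strand) measured 57.4 CPM in the lowest KO tumor, 67.8 at the median and 88.3 in the highest, KO F. In WT A to E it was 40.5, 67.0, 50.1, 47.5 and 70.5 CPM. WT B and WT E lay inside the KO range, while WT A, C and D lay below every KO tumor. The log2 fold change was 0.37 (SE 0.181, unadjusted p = 0.0606, edgeR adjusted p = 0.228). It was -0.05 with the gene length offset and 0.04 with the macrophage list as a covariate.

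The Twist genes were the most variable of the 10, with coefficients of variation over the 11 tumors of 46.3% for Twist1 and 71.4% for Twist2. Twist1 (ENSMUSG00000035799, chromosome 12, 33957671 to 33959829, plus strand) encodes a basic helix-loop-helix factor. It was at 3.36 CPM in the lowest KO tumor, 5.53 at the median and 8.45 in the highest, and at 8.85, 11.7, 5.41, 1.65 and 4.29 CPM in WT A to E. WT A and WT B were above every KO tumor and WT D was below every one. The log2 fold change was -0.13 (SE 0.414, edgeR adjusted p = 0.875), and 0.97 without WT A, B and C (edgeR adjusted p = 0.3).

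Twist2 (ENSMUSG00000007805, chromosome 1, 91801461 to 91848028, plus strand), its close relative, measured 1.32 CPM in the lowest KO tumor, 3.60 at the median and 5.53 in the highest. In WT A to E it was 2.34, 6.17, 7.42, 0.313 and 0.739 CPM. The lowest value rests on 8 counts in WT D, for which counting error alone allows 0.135 to 0.617 CPM (exact Poisson 95% interval) and which lies below the interval of the lowest KO tumor, 0.935 to 1.81 CPM. WT D and WT E were below every KO tumor, and WT B and WT C above every one. Within KO hosts the values formed a lower trio (KO A, C and E, up to 2.40 CPM) and an upper trio (KO B, D and F, from 4.81 CPM). Over all tumors the log2 fold change was 0.06 (SE 0.693, 95% interval -1.44 to 1.55, edgeR adjusted p = 0.969). Without WT A, B and C it was 2.70, at an unadjusted p of 0.00544 and an edgeR adjusted p of 0.146, with WT D and WT E alone in the WT group.

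Prrx1 (ENSMUSG00000026586, chromosome 1, 163245119 to 163313710, minus strand) encodes a homeodomain factor of embryonic mesenchyme and fibroblasts. It was at 32.9 CPM in the lowest KO tumor, 36.8 at the median and 58.9 in the highest, KO F. In WT A to E it was 27.0, 36.0, 33.4, 18.2 and 40.6 CPM. KO F stood far above the other 5 KO tumors, which lay within 32.9 to 39.1 CPM. The log2 fold change was 0.35 (SE 0.222, edgeR adjusted p = 0.34), and -0.06 with the macrophage list as a covariate.

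Among the effectors, Vim was the only one lower on average in KO tumors. Vim (ENSMUSG00000026728, chromosome 2, 13573927 to 13582826, plus strand) encodes vimentin, the intermediate filament protein of mesenchymal cells. It was at 1681 CPM in the lowest KO tumor, 1978 at the median and 2565 in the highest, and at 2397, 3061, 2426, 2329 and 1792 CPM in WT A to E. WT E was low among WT tumors and KO A high among KO tumors, and 4 of 5 WT tumors lay above the KO median. Its log2 fold change was -0.25 (SE 0.197, 95% interval -0.68 to 0.18, edgeR adjusted p = 0.446), and -0.02 without WT A, B and C.

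The cadherin genes had the opposite direction on average. Cdh2 (ENSMUSG00000024304, chromosome 18, 16588877 to 16809246, minus strand) encodes N-cadherin, which replaces E-cadherin in many carcinomas undergoing EMT. It was at 33.4 CPM in the lowest KO tumor, KO F, 55.6 at the median and 57.7 in the highest, and at 17.0, 38.9, 44.2, 26.6 and 65.9 CPM in WT A to E. Apart from KO F and KO C, the KO tumors lay within 55.6 to 57.7 CPM, whereas WT tumors spread over 17.0 to 65.9 CPM. In the fit of all tumors its log2 fold change was 0.40 (SE 0.289, edgeR adjusted p = 0.403), 0.69 without WT E and 0.14 without WT A, B and C.

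Cdh11 had the largest difference of the 10 genes. Cdh11 (ENSMUSG00000031673, chromosome 8, 102632095 to 102785642, minus strand) encodes cadherin-11, an adhesion molecule of mesenchymal cells and activated fibroblasts. It was at 87.9 CPM in the lowest KO tumor, 119 at the median and 175 in the highest, KO C. In WT A to E it was 35.0, 40.9, 54.1, 97.3 and 92.2 CPM. WT A, B and C lay below every KO tumor, whereas WT D and WT E lay inside the KO range, above KO B and KO E. The mean was 121 ± 32.3 CPM in KO (SD, n = 6) and 63.9 ± 29.1 CPM in WT tumors (SD, n = 5).

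The log2 fold change of Cdh11 was 0.92 (SE 0.289, 95% interval 0.30 to 1.55, unadjusted p = 0.00712, edgeR adjusted p = 0.107). Over 22 alternatives it was above 0 in 22, and at an unadjusted p under 0.05 in 21. It passed the adjusted threshold in 3 of them, without WT D (1.13, edgeR adjusted p = 0.0481), without WT E (1.09, edgeR adjusted p = 0.0412) and with DESeq2 (0.94, DESeq2 adjusted p = 0.0412), and the adjusted p ranged up to 0.52. The exception at the unadjusted threshold was the fit without WT A, B and C, where it was 0.36 (unadjusted p = 0.18). The 3 WT tumors with the low Cdh11 values are those with the high ribosomal RNA share. In a fit adjusted for that share the log2 fold change was 0.71 (unadjusted p = 0.0342, edgeR adjusted p = 0.52). It was 0.75 with the gene length offset (unadjusted p = 0.00405, edgeR adjusted p = 0.0866) and 0.72 with the fibroblast list as a covariate (edgeR adjusted p = 0.257). Beyond these fits, the part of library quality in the difference was not tested.

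**Figure D2:**
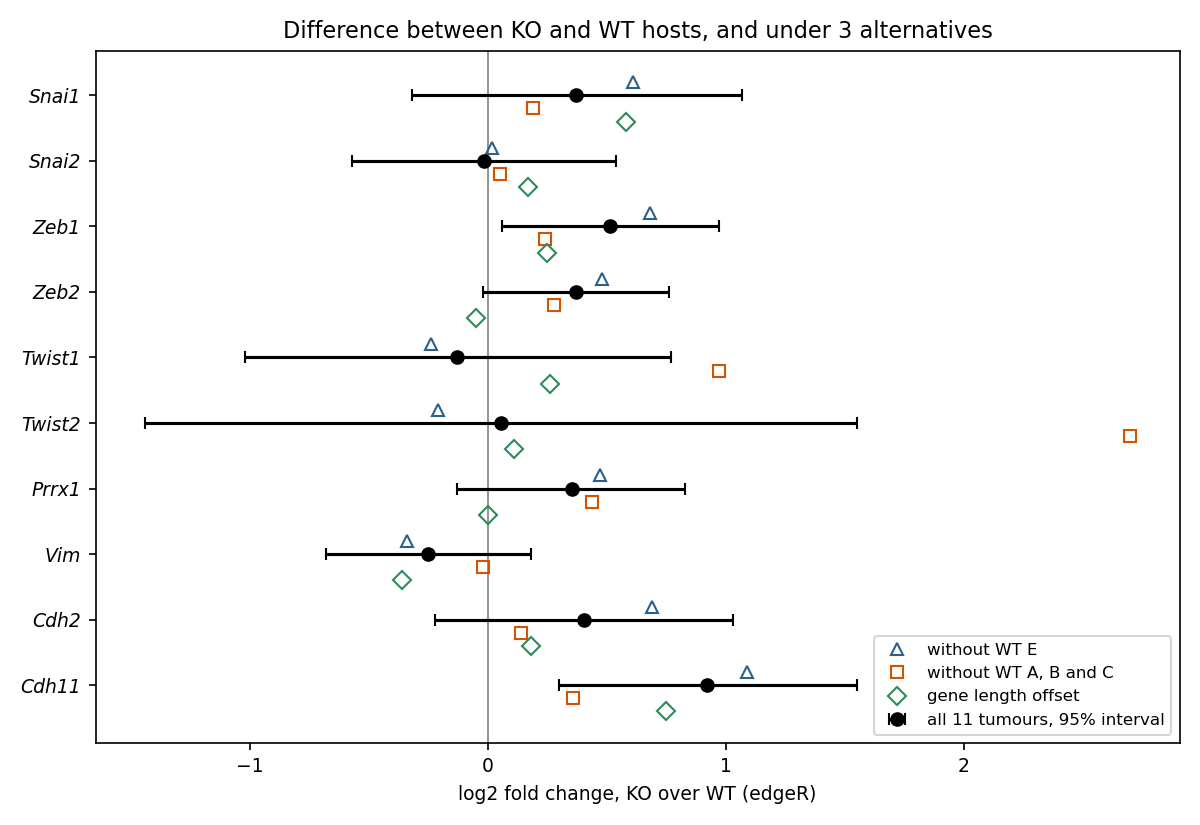
edgeR log2 fold change of KO over WT tumors (horizontal axis) for each of the 10 genes, as filled points with 95% intervals for all 11 tumors and open symbols for the fits without WT E, without WT A, B and C, and with a gene length offset. Only the intervals of Zeb1 and Cdh11 lie wholly above 0, and without WT A, B and C their values move to 0.24 and 0.36 while Twist2 moves to 2.70.

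Scaled by exon length, the genes spanned a wide range. Vim was at 462 CPM per kilobase averaged over the 11 tumors, above 99.4% of tested genes. Snai1 (10.8) and Cdh11 (10.7 CPM per kilobase) followed, and the order of these 2 was kept in only 4 of 11 tumors. Cdh2 was at 5.62, Snai2 at 4.71, Twist1 at 3.72, Zeb1 at 3.36, Prrx1 at 3.23 and Zeb2 at 3.21 CPM per kilobase. Cdh11 exceeded Cdh2 in 10 of 11 tumors and Snai2 exceeded Twist1 in 9, but Cdh2 exceeded Snai2 in 7, Twist1 exceeded Zeb1 in 5, Zeb1 exceeded Prrx1 in 7 and Prrx1 exceeded Zeb2 in 6, so that these last neighbors are not ordered beyond the spread of tumors. Twist2 was lowest, at 1.09 CPM per kilobase, below Zeb2 in 11 of 11 tumors and above 21.3% of tested genes. Exon lengths merge all annotated transcripts, which gives Zeb2 19942 bases over 29 transcripts and lowers its value relative to single-transcript genes such as Snai1 (1621 bases).

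**Figure D3:**
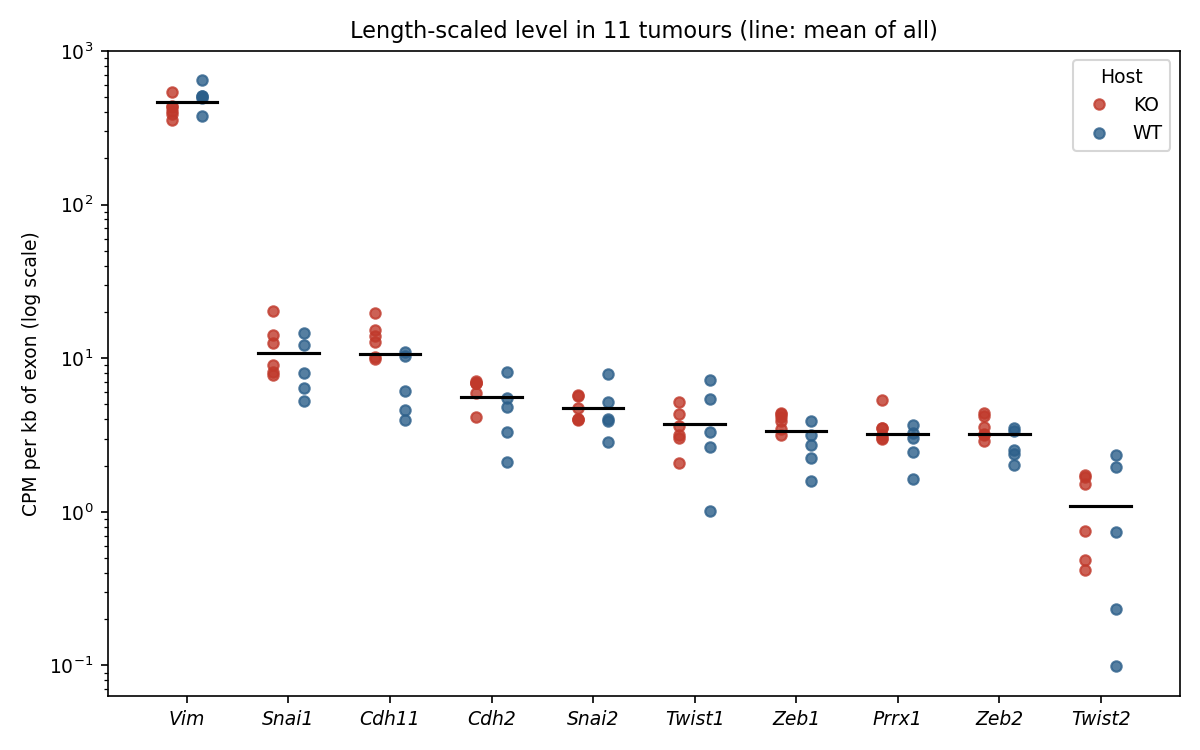
CPM per kilobase of merged exon (log axis) of each gene in every tumor, KO and WT side by side, ordered by the mean over 11 tumors (horizontal line). Vim lies at 462, Snai1 and Cdh11 near 10.8 and 10.7, 6 genes between 5.62 and 3.21, and Twist2 at 1.09.

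To ask which cells' markers the EMT genes moved with, each was related to marker lists of 10 fibroblast, 7 macrophage and 12 epithelial genes, none of which is among the 10. Of 30 relations, 5 had an adjusted permutation p under 0.05 for Pearson's r. The points share libraries, so that depth and RNA quality can move a gene and a list together. The fibroblast list had a mean log2(CPM + 1) of 7.57 ± 0.476 in KO (SD, n = 6) and 7.22 ± 0.489 in WT tumors (SD, n = 5), a difference that did not pass the exact permutation test (two-sided p = 0.262, adjusted over 12 lists 0.393). The macrophage list was 0.41 higher on this scale in KO tumors (exact permutation p = 0.0173, adjusted 0.0693), with summed levels of 2039 to 3779 CPM in KO and 1506 to 2755 CPM in WT tumors.

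Zeb2, Snai1 and Prrx1 followed the fibroblast list most closely by Pearson's r. For Zeb2, Pearson's r was 0.871 (permutation p = 0.00066, adjusted 0.0079) and Spearman's rho 0.90 (p = 0.00049, adjusted 0.0106) over 11 tumors, with r = 0.877 within the 6 KO tumors and 0.768 without KO F and KO C, the tumors farthest from the median of the list. For Snai1, r was 0.864 (permutation p = 0.00043, adjusted 0.0079) and rho 0.882 (p = 0.00071, adjusted 0.0106), with r = 0.898 within KO and 0.805 without those 2 tumors. For Prrx1, r was 0.762 (permutation p = 0.00131, adjusted 0.00982) and rho 0.855 (p = 0.00131, adjusted 0.0131), with r = 0.694 within KO and 0.723 without those 2. In all 3 relations the tumors of 1 host genotype alone, KO, thus had the same direction. Snai2 passed adjustment with this list by rank only (rho 0.791, permutation p = 0.00558, adjusted 0.0418), with r = 0.505 (permutation p = 0.114, adjusted 0.285) over all tumors, 0.537 within KO and 0.484 without those 2.

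Vim moved the other way. Its r with the fibroblast list was -0.706 (permutation p = 0.0156, adjusted 0.067; rho -0.609, permutation p = 0.0509, adjusted 0.17), -0.794 within KO, -0.851 without WT A, B and C, and -0.551 without KO F and KO C. The adjusted p did not pass the threshold. Tumors with the highest fibroblast markers, KO C, KO F and WT E, were among the 4 lowest for Vim, the remaining one being KO D.

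Zeb2 also followed the macrophage list, with r = 0.772 (permutation p = 0.00501, adjusted 0.0301) and rho 0.755 (p = 0.00956, adjusted 0.0574). Within KO tumors r was 0.956, and without KO C and KO F, the tumors farthest from the median of this list, it was 0.546. KO C and KO F were the highest tumors on both the fibroblast and the macrophage list, so the relations to these lists are not independent. Prrx1 had r = 0.741 with the macrophage list (permutation p = 0.015, adjusted 0.067) and rho 0.491 (permutation p = 0.127, adjusted 0.297), which did not pass adjustment. Its r was 0.884 within KO, and 0.509 over all tumors without KO C and KO F. KO F had both the highest Prrx1 and the highest macrophage list value (8.58), so the r within KO rests in part on it. Snai2 fell as the epithelial list rose, with r = -0.895 (permutation p = 0.00079, adjusted 0.0079) and rho -0.736 (p = 0.0125, adjusted 0.0626). Within KO tumors r was -0.854, and without WT A and WT B, which hold the highest and the lowest epithelial values, it was -0.563, so that the size of this relation rests in part on them. Cdh11 and Zeb1, the genes with the largest differences between hosts, had no relation to any of the 3 lists that passed adjustment. The closest was Cdh11 with the fibroblast list, at r = 0.62 (permutation p = 0.0415, adjusted 0.138) and rho 0.655 (permutation p = 0.0333, adjusted 0.125). Its r was 0.828 within KO, 0.602 without WT A, B and C, and 0.394 without KO F and KO C.

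**Figure D4:**
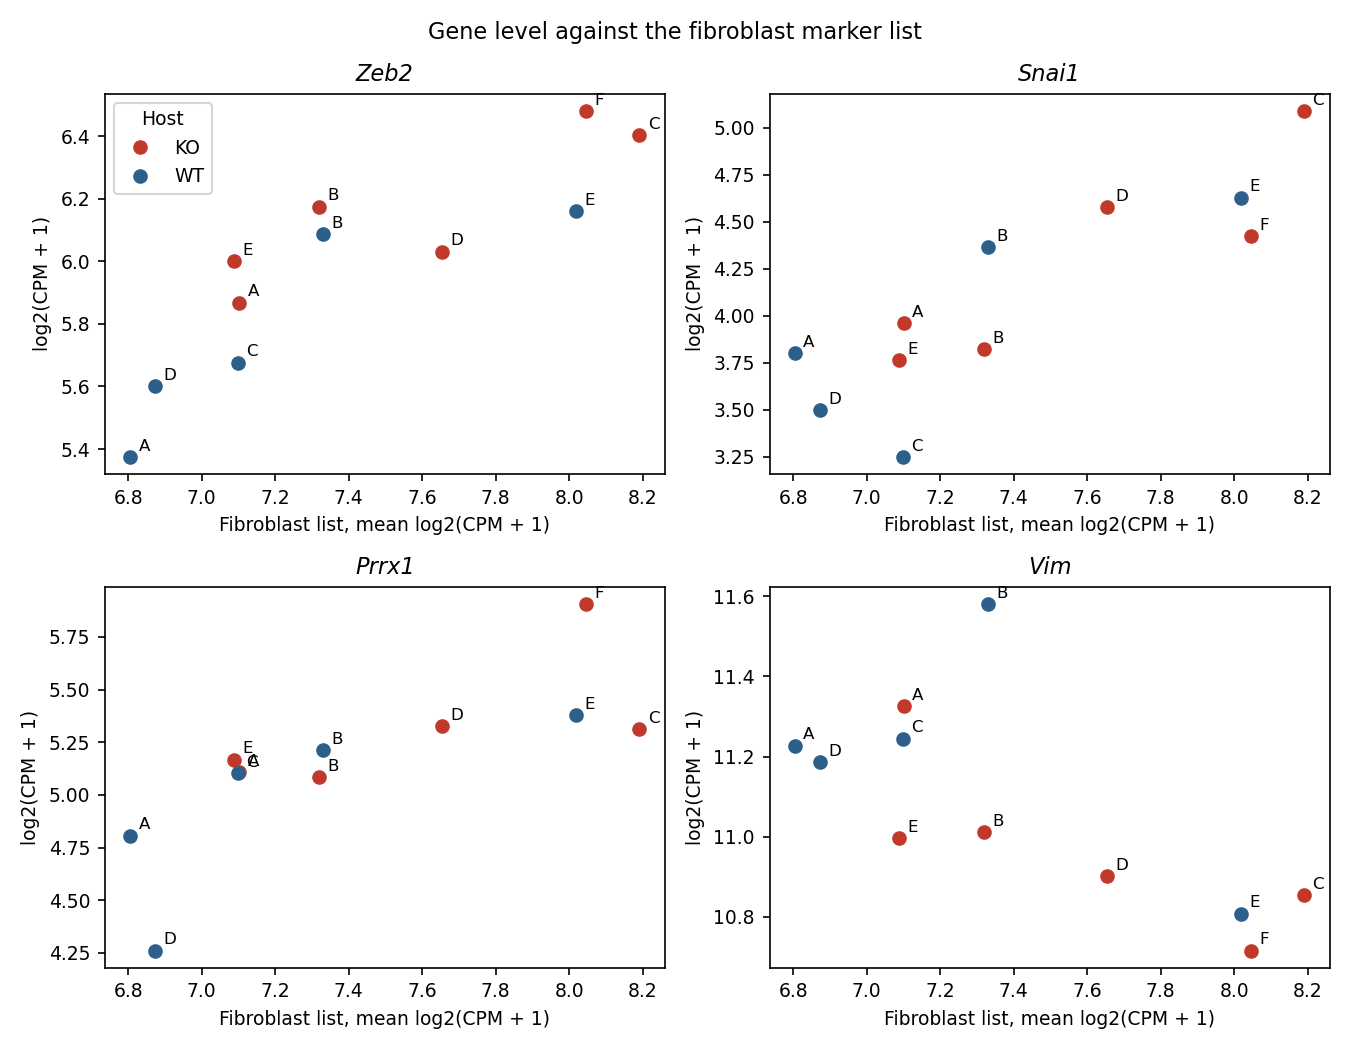
Level of Zeb2, Snai1, Prrx1 and Vim (log2(CPM + 1), vertical axes) against the mean log2(CPM + 1) of 10 fibroblast marker genes (horizontal axes) in 6 KO and 5 WT tumors. Zeb2, Snai1 and Prrx1 rise with the list (r = 0.871, 0.864 and 0.762) and Vim declines (r = -0.706).

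Ratios within a library do not depend on its scaling factor, except where a gene is so low that the added CPM weighs in. For this, 3 pairs of a mesenchymal and an epithelial gene were compared as log2 ratios of CPM + 0.1. A ratio does not remove a trend with gene length such as that in WT A, B and C. The part of that trend in the ratios was not tested. The N-cadherin to E-cadherin ratio, Cdh2 to Cdh1, was -2.97, -2.89, -2.78, -2.87, -3.08 and -2.82 in KO A to F, and -3.92, -1.31, -3.63, -4.48 and -2.97 in WT A to E. The KO tumors were tightly grouped (SD 0.106) and the WT tumors were not (SD 1.22). In KO F both cadherins were the lowest of the KO group, 33.4 CPM for Cdh2 and 237 CPM for Cdh1, and the ratio stayed within the group. The mean difference was 0.36 (exact two-sided permutation test, p = 0.478, adjusted over 3 ratios 0.697). Single WT tumors moved it in both directions. Without WT B, where Cdh1 was at 96.9 CPM, the difference was 0.85 (exact permutation p = 0.0143, not adjusted), and without WT D it was 0.06 (exact permutation p = 0.881).

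The Vim to Epcam ratio averaged 6.21 in KO and 5.77 in WT tumors (exact permutation p = 0.697, adjusted 0.697), with WT A at 3.06 and WT B at 9.73, and Epcam at 287 CPM in WT A and 3.50 CPM in WT B. The difference was 1.43 without WT B (exact permutation p = 0.0143), -0.24 without WT A (exact permutation p = 0.857) and 0.86 without both (exact permutation p = 0.107). The Zeb1 to Esrp1 ratio, which sets Zeb1 against an epithelial splicing regulator, averaged 6.57 in KO and 4.26 in WT tumors, a difference of 2.31 (exact permutation p = 0.11, adjusted 0.331). It was 3.20 without WT B (p = 0.0333, exact permutation), 2.90 without KO F (p = 0.0397, exact permutation) and 1.43 without WT A (p = 0.243, exact permutation). Esrp1 had 0 counts in KO B and WT B and 1 count in KO A, so that these ratios depend on the added 0.1 CPM. With 0.5 CPM added instead, the Zeb1 to Esrp1 difference was 1.78 (exact permutation p = 0.0541, not adjusted).

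**Figure D5:**
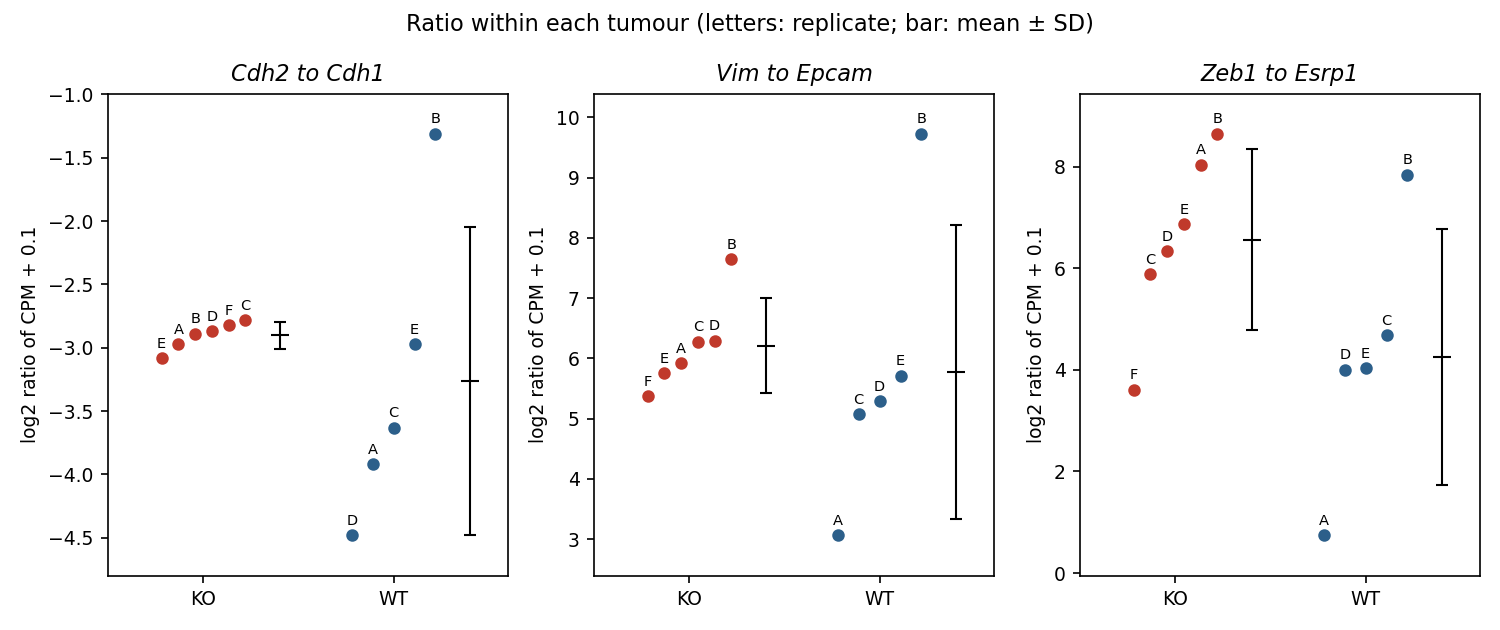
Log2 ratio (vertical axes) of Cdh2 to Cdh1, Vim to Epcam and Zeb1 to Esrp1 in each KO and WT tumor, with replicate letters and the mean and SD beside the points. The Cdh2 to Cdh1 ratio spans -3.08 to -2.78 in KO and -4.48 to -1.31 in WT tumors, with WT B highest among WT tumors in all 3 panels.

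Genes of the wider pathway were read from the same fit, and none passed the adjusted threshold. Over all tested genes 8.57% were higher and 15.5% lower at an unadjusted p under 0.05, and the counts below are to be read against these shares. Of 8 other EMT transcription factor genes tested, 1 had a fold change above 0 and 7 below, and 1 was lower at an unadjusted p under 0.05, which is no more than the share over all genes. This was Snai3, a Snail relative, at 1.31 ± 0.502 CPM in KO (SD, n = 6) and 3.47 ± 2.31 CPM in WT tumors (SD, n = 5), with a log2 fold change of -1.41 (edgeR adjusted p = 0.0975). The values were 0.45 for Klf8, a Krüppel-like factor gene, -0.43 for Sox4 and -0.10 for Tcf3, with edgeR adjusted p-values of 0.549, 0.358 and 0.723. Of 7 genes for E proteins, the dimer partners of Twist, and Id proteins, which sequester those partners, 2 were above 0 and 5 below with 0 at an unadjusted p under 0.05. The log2 fold change was 0.31 (SE 0.218) for Tcf12, an E protein gene, -0.63 (SE 0.394) for Id1 and -0.38 (SE 0.253) for Id2.

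Of 11 corepressor and stability genes of Snail and Zeb, 5 were above 0 and 6 below, and 0 had an unadjusted p under 0.05. Sin3a, a corepressor scaffold gene, had a log2 fold change of 0.23 (SE 0.201) and Ctbp1, a corepressor that binds Zeb factors, -0.23 (SE 0.164). The histone deacetylase genes Hdac1 and Hdac2 were at 0.01 (SE 0.143) and -0.06 (SE 0.145). Of 9 epithelial regulators that oppose EMT, 6 were tested, 1 above 0 and 5 below, with 0 at an unadjusted p under 0.05. Esrp1, a splicing regulator gene with 0 counts in 2 tumors, had the smallest p of these and a fold change of -1.97 on the log2 scale (SE 1.14, edgeR adjusted p = 0.301). Foxa1, Elf3 and Foxa2, which encode transcription factors of epithelial cells, were at 0.19 (SE 0.477), -0.71 (SE 0.506) and -0.11 (SE 0.198). Grhl2, Ovol1 and Ovol2 had at most 60 counts in any tumor and were not tested.

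The 12 epithelial junction and keratin genes all had fold changes below 0, with a median of -0.65 on the log2 scale. At an unadjusted p under 0.05, 3 of 12 were lower, where 15.5% of all tested genes were. These were Krt19, a ductal keratin (-0.92, edgeR adjusted p = 0.128), Epcam (-1.62, edgeR adjusted p = 0.195) and Krt18, a simple epithelial keratin (-0.54, edgeR adjusted p = 0.205). The Epcam difference rests largely on WT A, at 287 CPM. WT B to E were at 3.50 to 72.2 CPM and KO tumors at 10.2 to 42.4 CPM. Krt8, which encodes the partner of keratin 18, was at -0.57 (edgeR adjusted p = 0.23). Cdh1 itself was at 385 ± 86.6 CPM in KO (SD, n = 6) and 403 ± 216 CPM in WT tumors (SD, n = 5), a log2 fold change of -0.07 (edgeR adjusted p = 0.93). The difference in the mean of this list was -0.28 on the log2(CPM + 1) scale and did not pass the exact permutation test (two-sided p = 0.565).

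Of 12 mesenchymal effector genes, 10 were above 0 and 2 below, with a median of 0.39 against -0.03 over all tested genes. At an unadjusted p under 0.05, 4 of 12 were higher, where 8.57% of all tested genes were, and 1 was lower, where 15.5% were. The 4 were Tnc, a matrix glycoprotein gene (1.08, edgeR adjusted p = 0.126), Axl, a receptor kinase gene (0.41, edgeR adjusted p = 0.137), Mmp2, a gelatinase gene (1.03, edgeR adjusted p = 0.142), and Fn1, the fibronectin gene (0.77, edgeR adjusted p = 0.198). Sparc, a matrix glycoprotein gene, was at 0.24 (edgeR adjusted p = 0.548). The lower one was S100a4, often used as a fibroblast marker, with means of 0.60 CPM in KO tumors and 1.72 CPM in WT tumors (-1.48, edgeR adjusted p = 0.158).

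Of 9 other cadherin and catenin genes, 6 were above 0 and 3 below, and 1, Cdh3 for P-cadherin, was higher at an unadjusted p under 0.05 (0.98, edgeR adjusted p = 0.189). The catenin genes Ctnna1, Ctnnb1 and Ctnnd1, whose products link cadherins to the cell interior, were at 0.37 (SE 0.203), -0.13 (SE 0.257) and -0.33 (SE 0.378). Of 4 tested intermediate filament genes beside Vim, 3 were above 0 and 1 below, with a median of 0.73 and 0 at an unadjusted p under 0.05. The log2 fold change was 0.92 (SE 0.441, edgeR adjusted p = 0.222) for Synm, the synemin gene, 1.42 (SE 0.947) for Prph, the peripherin gene, 0.55 (SE 0.498) for Nes, the nestin gene, and -0.58 (SE 0.337) for Des, the desmin gene.

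The EMT genes did not share a single pattern over tumors. By Pearson's r of log2(CPM + 1) over 11 tumors, given as a description with no test, Zeb1 was most like Cdh2 (0.80), Zeb2 most like Prrx1 (0.784), Snai1 most like Zeb2 (0.728) and Cdh11 most like Zeb1 (0.73). Within the 6 KO tumors, Cdh11 and Zeb1 had r = -0.572 and Cdh2 and Zeb1 -0.03, whereas Zeb2 and Prrx1 kept 0.727. Cdh11 and Snai1 had r = 0.509 over all tumors and 0.975 within KO, and Cdh2 and Prrx1 0.419 and -0.962. The last value rests in part on KO F, which had the lowest Cdh2 and the highest Prrx1 of the KO tumors. The likeness of Zeb1 to both cadherin genes over all tumors was thus not present among KO tumors, of which there are 6.

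Over all tested genes, the patterns most like Cdh11 were those of Nfasc (r = 0.988), Sesn1 (0.973) and Nin (0.949), and without WT A, B and C these were 0.95, 0.841 and 0.654 over 8 tumors. The nearest to Zeb1 were Zbtb34 (0.983), Ripor1 (0.976) and Zc3h12c (0.963). Those nearest to Cdh2 were Socs5 (0.974), Sema6d (0.939) and Ltbp4 (0.928), to Zeb2 Hpgds (0.941), Sulf1 (0.939) and Pcdhgb7 (0.935), and to Snai1 Pdzrn3 (0.947), Loxl1 (0.942) and Zfp970 (0.925). For Prrx1 they were Slitrk2 (0.926), Esr1 (0.905) and C6 (0.905), and for Vim Macrod2 (0.954), Cox19 (0.952) and 5830454E08Rik (0.952). Those nearest to Snai2, Twist1 and Twist2 were Tulp1 (0.891), Hoxaas3 (0.927) and Vmn1r43 (0.913). Few counts stand behind the points of several of these genes, with means of 0.425 CPM for Slitrk2, 0.609 for Hoxaas3, 0.832 for 5830454E08Rik, 0.837 for Pcdhgb7, 0.95 for Tulp1 and 1.27 for Vmn1r43. These are the highest of 16536 values for each gene, over 11 tumors.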

How the data were processed

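According to the labels and the study's methods, strand-specific paired-end libraries were trimmed (Trimmomatic), aligned to GRCm38 (HISAT2 2.1.0) and counted over exons (HTSeq 0.11.2), keeping uniquely aligned reads. The authors deposited raw counts per gene and normalised values, a signal that equalled each count divided by 1 DESeq2 size factor per tumor. Of 54232 identifiers, 54165 matched a symbol in GENCODE M21 (GRCm38). The counts were tested with edgeR 4.0.16 (R 4.3.3; quasi-likelihood F-test, TMM, filterByExpr, no covariates), with Benjamini-Hochberg adjustment over 16536 genes at 0.05, after a check on simulated counts. DESeq2 1.42.0 was an alternative. The deposited signal served as an alternative for ratios and correlations. Ratios and lists were compared by exact two-sided permutation over all 462 splits (smallest p 0.00216), and correlations with 100000 resamples. At these depths 3 counts equal 0.0887 to 0.25 CPM, and intervals on counts cover counting error only.

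Groups came from the sample titles. The study describes the hosts as littermates, but nothing states which animals shared a litter, so the p-values treat the tumors as independent. The named genes are all 10 EMT genes, for each pathway list the smallest p in each direction and the highest mean CPM (at most 4 genes), and the 3 genes most alike in pattern. Epcam, Cdh1, Crb3, Axl, Mmp2 and 3 untested epithelial regulators were named beyond it, after their values were seen. The EMT genes and lists were chosen with earlier results of these data known. The result of 1 marker list is not reported here.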

Additional observations from a re-analysis of the deposited data

Results flagged for a closer look

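Dixon's test for a tumor far from the rest of its group was applied to 50 groups, for which chance alone gives about 2.5 flags. Each group was 1 measure in 1 host genotype, and the measures included the EMT genes and the marker lists. It marked 3 values, all in KO tumors. Prrx1 was at 58.9 CPM in KO F, where the other 5 KO tumors lay within 32.9 to 39.1 CPM, a gap of 0.76 of the group's range. The acinar marker list (mean log2(CPM + 1) of 5 digestive enzyme genes) was at 5.79 in KO E, against 0.669 to 1.12 in the other KO tumors. The islet marker list (mean log2(CPM + 1) of 5 hormone and granule genes) was at 3.42 in KO F, against 0.145 to 0.374 in the other KO tumors. Among WT tumors the acinar list ran from 0.945 in WT D to 7.48 in WT E, above KO E, with 4.50 in WT A. The islet list was at 5.05 in WT E and 2.67 in WT A, and Prrx1 was at 40.6 CPM in WT E. Leaving out KO F changed the log2 fold change of Prrx1 from 0.35 to 0.21.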

How the results depend on the processing

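Over 22 alternatives to the edgeR fit, the count of EMT genes past the adjusted threshold was 0 to 2 when 1 tumor was left out (1 without WT D, 2 without WT E) and 1 with DESeq2, the gene being Cdh11 each time, joined by Zeb1 without WT E. The count higher at an unadjusted p under 0.05 was 1 to 4 when 1 tumor was left out, 4 being without WT E, and 1 without WT A and B, without WT A, B and C, with the ribosomal RNA share, the fibroblast list or the macrophage list as a covariate, and with the gene length offset. The directions of Cdh2, Cdh11, Zeb1 and Vim were kept in all 22, whereas Zeb2, Snai1, Snai2, Twist1, Twist2 and Prrx1 took both signs, none of them with an adjusted call. Twist2 could not be fitted with 10 counts required in every tumor, since WT D had 8. Over all genes, edgeR called 3 higher and 0 lower (3972 at an unadjusted p under 0.05). It called 39 higher and 6 lower with no filter, 12 higher with the macrophage list as a covariate, 66 higher and 23 lower with the length offset, and 3 lower without WT A, B and C, while DESeq2 called 595 higher and 900 lower. It called 0 higher with 10 counts required (3514 at an unadjusted p under 0.05), without WT A and B (2374), with the ribosomal RNA share (1470) and with the fibroblast list (2857). Leaving out 1 tumor gave 0 to 608 higher and 0 to 1248 lower, the largest counts being without WT E, then WT D (203 higher and 651 lower), and for higher genes KO F (30). The causes were not tested.

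Both groups use the letters A to E, and same-letter tumors did not deviate together (correlations from -0.172 to 0.163). The labels do not say what the letters stand for, and this check cannot show whether same-letter tumors shared a litter or a preparation. With the letters as a replicate block and KO F left out, edgeR called 7 genes higher and 1 lower, and 0 of the EMT genes.

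The Cdh2 to Cdh1 difference was 0.06 (without WT D) to 0.85 (without WT B) when 1 tumor was left out and 0.79 without WT A and B (exact permutation p = 0.0357). Vim to Epcam was -0.24 to 1.43 and Zeb1 to Esrp1 1.43 to 3.20, the lowest of each without WT A and the highest without WT B. Depth limits Twist2 in WT D (8 counts) and Esrp1 (0 counts in 2 tumors).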

Other observations

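Other cell types that use the EMT genes were read from 12 marker lists, as the difference in mean log2(CPM + 1) between KO and WT tumors with exact two-sided permutation p-values adjusted over the lists. The pericyte list (0.43, adjusted p = 0.312, exact permutation), the endothelial list (0.41, adjusted p = 0.292, exact permutation) and the mesothelial list (0.29, adjusted p = 0.433, exact permutation) did not pass. The B cell list was 2.11 higher in KO tumors (adjusted p = 0.026, exact permutation) and was the only list to pass, with summed levels of 29.7 to 90.3 CPM in KO and 5.76 to 27.5 CPM in WT tumors. The neutrophil list was 1.40 higher (adjusted p = 0.0693, exact permutation). The T cell (-0.08), acinar (-1.65) and islet (-0.96) lists had adjusted p-values of 0.885, 0.393 and 0.452 in the same exact permutation test. The part of these cell types in the levels of the EMT genes was not tested.

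Within KO tumors Cdh2 and Cdh1 kept a nearly fixed proportion while Prrx1 ran against Cdh2, with r = -0.962 over 6 tumors. KO F had the lowest Cdh2 and the highest Prrx1 of the group, so that this r rests in part on KO F. This was seen after the values were known, and over all 11 tumors r was 0.419.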
